A study of Mus musculus with 19 samples.

Results

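Hox genes were described across 19 arrays of mouse sciatic nerve. The members were the 33 genes whose single symbol in the platform annotation was Hoxa, Hoxb, Hoxc or Hoxd followed by a number, out of 18193 genes with a single symbol. These genes had 48 probe sets, and where a gene had several, the one with the greatest mean was taken. The reference gene table lists 39 genes with such a symbol, and the other 6 were not analysed here. Probe sets annotated to several Hox genes, 3 in number, were not used either. All mice were of the inbred strain DBA/2J, and each array held total RNA from the nerve of 1 mouse. The groups were 5 diabetic mice given rosiglitazone (DR), 5 diabetic mice given vehicle (DV), 5 control mice given rosiglitazone (CR) and 4 control mice given vehicle (CV). Diabetic mice had received streptozotocin, which destroys the insulin-producing cells of the pancreas, and the design text calls their diabetes type 1. Rosiglitazone activates the nuclear receptor PPAR gamma and is used against high blood sugar, and the study asked whether it alters neuropathy in this model. The submitters left out 1 control array after quality control. Ages, doses and times are not given in the sources used here. Arrays are named by group and the number in their titles. Values are log2 of the deposited intensities.

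Hox genes encode transcription factors that bind DNA through a homeodomain. In mammals they lie in 4 clusters, and the genes of a cluster are numbered from 1 at one end to 13 at the other, so that genes of the same number in different clusters are paralogs. During development, genes with low numbers are switched on in the hindbrain and neck and genes with higher numbers progressively further towards the tail, and many cells keep part of this pattern into adult life. The sciatic nerve carries axons of the lumbar spinal levels. It holds Schwann cells, fibroblasts, perineurial cells, vessels and axons, whereas the cell bodies of its sensory neurons lie in dorsal root ganglia and those of its motor neurons in the spinal cord. Cofactors of the TALE class, encoded by the Pbx, Meis and Pknox genes, bind DNA together with Hox proteins.

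Marker genes of several cell types differed between the samples. Mbp, which encodes myelin basic protein, lay between 13.83 and 14.44 on all arrays, and Pmp22 between 13.82 and 14.34. Other Schwann cell markers spread further, such as Mag over 6.76 to 9.78 and S100b over 11.25 to 13.60. Isl1, a transcription factor of sensory and motor neurons, was above 8 on 14 arrays, at 9.47 to 11.35, and below 8 on 5, at 3.83 to 6.41. The arrays below 8 were DR716, DV706, DV707, DV709 and CR715, that is 1 of 5 DR, 3 of 5 DV, 1 of 5 CR and 0 of 4 CV arrays. Leaving out Isl1, which made the split, 10 of 12 tested markers of sensory neuron cell bodies were higher on every array of the first set than on any of the second, beside 4.39% of the 13460 genes tested. The level of these 12, the mean after each was centred over the 19 arrays, was -0.19 to 2.11 in the first set and -3.37 to -2.73 in the second. Some of these 12, such as Scn10a at 3.82 to 5.26 in the second set, passed the filter of 5.54, explained with the levels, only through the first set. The count of 10 therefore rests in part on the arrays where the markers are high. Pou4f3, of the same list, had a mean under this filter, was not tested, and overlapped. Of 11 markers of motor and spinal cord neurons, 9 had means under this filter. Among these, Chat, which encodes choline acetyltransferase, and Mnx1 reached at most 4.24 and 3.25 on any array. Gad1 and Gad2, enzymes that make the transmitter GABA, reached 8.28 and 8.02 in the first set, against at most 3.73 and 3.89 in the second. Their medians in the first set were only 3.64 and 3.74, and the ranges of the sets overlapped. Of the 2 tested, Isl2 was at 8.01 to 9.71 in the first set, against 4.36 to 5.25 in the second, and Slc32a1 overlapped. Isl2 too passed the filter only through the first set. Breakdown of RNA was read from the Gapdh controls as the log2 signal at the 3' end minus that at the 5' end, which is greater in degraded RNA. It was 3.71 and 4.38 in DV706 and DV707 and 1.75 in DR716, against 1.00 to 1.37 on the other 16 arrays. In these bulk samples, fewer cells of a type and less RNA per cell cannot be told apart.

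By paralog number, every measured gene of numbers 5, 6, 8, 9 and 10 lay above the filter on dim genes, and no gene of numbers 12 and 13, the tail end of the clusters, did. The filter was a log2 intensity of 5.54, the 40th percentile of the means of the probe sets left after controls were removed. Of the 33 Hox genes, 22 lay above it, beside 13460 of all 18193 genes. These were 6 of 9 in the Hoxa cluster, 6 of 9 in Hoxb, 6 of 7 in Hoxc and 4 of 8 in Hoxd. Since most genes of the platform passed, a pass of every gene of a paralog number is not rare among so few genes. All 4 genes of paralog number 9 and all 3 of number 10 passed, as did the 3 of number 5 and both genes of numbers 6 and 8. Every array was above the filter for each of these 7 genes of numbers 9 and 10. None of the 4 genes of number 13 passed, nor did the single gene of number 12. In the remaining numbers some genes passed and some did not, 1 of 2 each for numbers 1, 2, 7 and 11 and 2 of 3 each for numbers 3 and 4. Intensities of different probe sets do not measure relative amounts of RNA, so the position against the filter and the spread of each gene are described, not an order of genes.

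**Figure D1:**
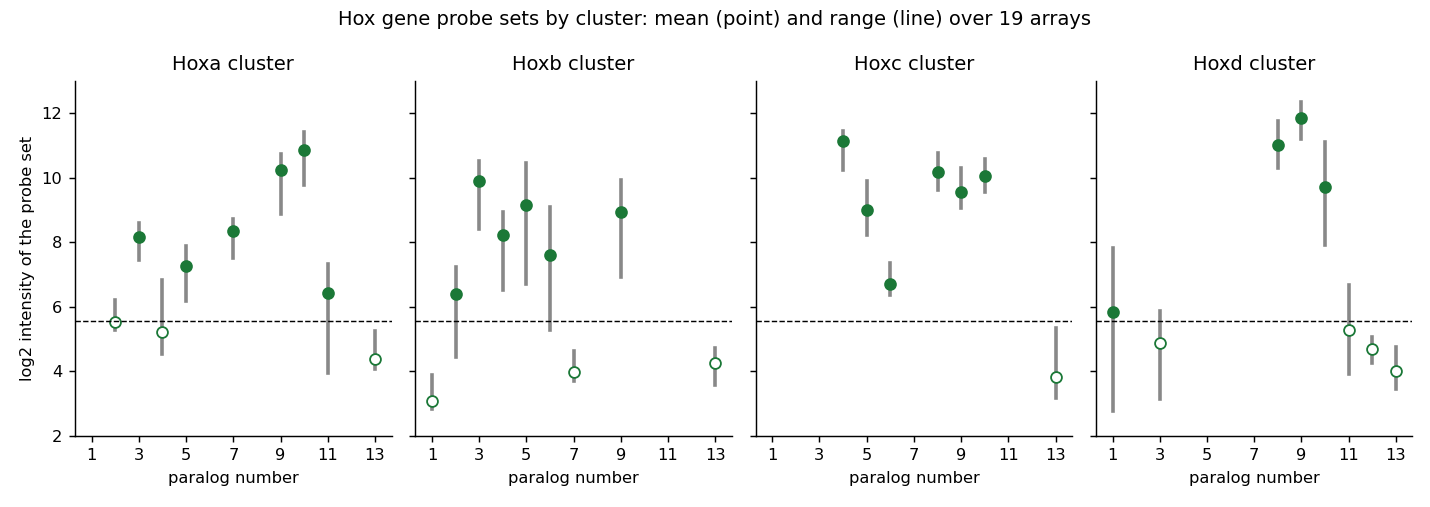
Mean (point) and range over 19 arrays (grey line) of the probe set of each of 33 Hox genes, in log2 intensity, against paralog number in the 4 clusters. The dashed line is the filter at 5.54, which 13460 of all 18193 genes passed. The filled points, 22 in number, lie above the filter, and the open points of paralog numbers 12 and 13 lie below it in every cluster that holds them.

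The genes of numbers 8 to 10, tied to thoracic and lumbar levels, lay above the filter on every array. So did genes of lower number, Hoxc4 and Hoxa3 among them, and 18 of the 22 tested genes in all. The share over all genes tested was not counted, so this is not read as a trait of these numbers. Hoxa11 and Hoxd11 did not lie above the filter on every array, with lowest values of 3.96 and 3.92. Hoxd9 ranged over 11.21 to 12.36, Hoxa9 over 8.89 to 10.75 and Hoxc9, a determinant of thoracic motor neurons, over 9.08 to 10.29. Hoxa10 and Hoxc10, which help to pattern the lumbar vertebrae and the hindlimb level of the spinal cord, lay at 9.77 to 11.43 and 9.56 to 10.58. Hoxd10, of the same paralog group, ran from 7.90 in array DV707 to 11.10 in array DV708. Hoxc8 and Hoxd8 ranged over 9.62 to 10.77 and 10.30 to 11.77, so groups 8 to 10 held both genes of narrow and genes of wide range. Hoxb9 lay at 6.93 to 9.94. Among genes of lower number, Hoxc4 was at 10.26 to 11.44, Hoxc5 at 8.23 to 9.91 and Hoxc6 at 6.36 to 7.37. Hoxa3, needed for the thymus and parathyroid in mouse embryos, was at 7.44 to 8.60, Hoxa5, needed for the airway, at 6.19 to 7.88 and Hoxa7 at 7.52 to 8.72.

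The members below the filter were Hoxa2, Hoxa4, Hoxa13, Hoxb1, Hoxb7, Hoxb13, Hoxc13, Hoxd3, Hoxd11, Hoxd12 and Hoxd13. Of these 11, 7 were below it on every array. The exceptions were Hoxa2, a hindbrain segment gene, at 5.27 to 6.20, Hoxa4 at 4.55 to 6.82, Hoxd3 at 3.13 to 5.87 and Hoxd11 at 3.92 to 6.67. Hoxa2, with a mean of 5.52, was the member just under the filter, and Hoxd1, with a mean of 5.83, the one just above it. Hoxa13 and Hoxd13, which shape digits and the genital and hindgut end of the body, had their highest values at 5.24 and 4.75. Hoxb1, a hindbrain segment gene, was at 2.82 to 3.89. The others were at 3.69 to 4.64 for Hoxb7, 3.57 to 4.72 for Hoxb13, 3.18 to 5.35 for Hoxc13 and 4.26 to 5.05 for Hoxd12. Low signal on these probe sets does not show that the transcripts were absent, because 1 probe set was used per gene and no detection call was used here.

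Across the 19 arrays the clusters differed in how far their genes spread. The range from the lowest to the highest array had a median of 2.90 over the 6 tested Hoxb genes and 2.34 over the 4 tested Hoxd genes, against 1.68 over the 6 Hoxa and 1.16 over the 6 Hoxc genes. Over all 22 tested Hox genes this median range was 1.69, and over the 13460 genes tested in all it was 1.26. The widest range, 5.04, was that of Hoxd1.

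Hoxd1, which in mouse embryos is needed for the normal wiring of pain-sensing neurons, was the member that separated the arrays most. In DR arrays Hoxd1 stood at 3.13, 7.66, 7.41, 6.19 and 7.01 in the order of array numbers, and in DV arrays at 2.97, 2.78, 7.11, 2.88 and 7.47. In CR arrays it stood at 6.05, 7.81, 7.07, 6.99 and 2.77, and in CV arrays at 6.21, 6.53, 6.81 and 5.89. The 5 values at or under 3.13 were those of the 5 arrays with Isl1 below 8, and the other 14 lay at 5.89 to 7.81. Between these values, from 3.13 to 5.89, there was no array. Its mean passed the filter only through those 14 arrays, so its place among the tested genes rested on the arrays where it was high.

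Promoter windows of 19 members, from 250 bases before to 50 after the gene start, were found in RefSeq (build GRCm38.p6). Those of Hoxd1, the member with the widest range, and Hoxd9, a member of the same cluster on chromosome 2 that was bright on every array, are shown to set side by side the sequence at the start of a gene whose transcript varied and of one whose transcript did not fall below 11.21. Capitals mark GGGCGG, the GC box bound by Sp1-type factors, and TAAT, the core bound by many homeodomains, on either strand, 5′ to 3′. The Hoxd1 window is chr2:74762730-74763029 and the Hoxd9 window chr2:74697513-74697812, both on the plus strand.
Hoxd1: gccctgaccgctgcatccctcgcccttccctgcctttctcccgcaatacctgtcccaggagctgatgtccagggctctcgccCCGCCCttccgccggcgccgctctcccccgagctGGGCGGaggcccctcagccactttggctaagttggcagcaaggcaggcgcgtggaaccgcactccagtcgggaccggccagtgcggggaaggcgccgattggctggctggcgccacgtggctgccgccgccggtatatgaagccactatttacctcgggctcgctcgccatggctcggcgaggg
Hoxd9: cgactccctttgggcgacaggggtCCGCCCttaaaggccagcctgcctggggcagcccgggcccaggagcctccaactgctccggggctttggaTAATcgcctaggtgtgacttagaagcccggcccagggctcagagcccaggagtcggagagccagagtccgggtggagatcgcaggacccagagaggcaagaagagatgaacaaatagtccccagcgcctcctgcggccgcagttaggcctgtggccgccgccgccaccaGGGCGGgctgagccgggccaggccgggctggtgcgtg
GGGCGG occurred at 2 places in the Hoxd1 window and 2 in the Hoxd9 window, and at least once in 35.7% of the 32851 promoter windows of 300 bases. TAAT occurred 0 times in the Hoxd1 window and 1 time in the Hoxd9 window, and in 58.0% of all windows. The Pbx-Hox type motif TGATNNAT, found in 8.85% of all windows, and the retinoic acid receptor half-site AGGTCA, found in 16.3%, were in neither. No match says only that these letters are not in the window. The windows held 29 CpG dinucleotides for Hoxd1 and 20 for Hoxd9, where the median over all windows was 7.

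The arrays with Isl1 above 8 were then set against those below, as a description with no test, since the split was made from a measured level. Hoxb genes lay higher in the 14 arrays, in 6 of 6 tested members, with a median of the differences of medians of 1.31 on the log2 scale. Hoxd genes did so in 4 of 4, with a median of 1.00 and single differences from 0.06 for Hoxd8 to 4.12 for Hoxd1. Hoxa genes did so in 5 of 6, with a median of 0.33. In the Hoxc cluster, 5 of 6 genes had lower medians there, and the median difference was -0.41. For the Hoxc genes this was smaller with the mean of all probe sets of a gene, with 4 of 6 lower and a median of -0.07. Without DV706, DV707 and DR716, the arrays with the highest Gapdh values, 4 of 6 Hoxc genes lay higher and 2 lower, with a median of 0.03, so the direction of this cluster turned. The other clusters then had 5 of 6 Hoxa, 6 of 6 Hoxb and 4 of 4 Hoxd genes higher, with medians of 0.54, 1.56 and 0.89. Over all 22 tested Hox genes 16 lay higher and 6 lower, with a median difference of 0.43. Of the 13460 genes tested 6069 lay higher and 7385 lower, with a median of -0.05. A difference of more than 1 was held by 6 of the 22 Hox genes in the higher direction and by 0 in the lower, beside 7.88% and 5.13% of all genes tested. Hoxd1, which passed the filter only through the 14 arrays, is among the 6.

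**Figure D2:**
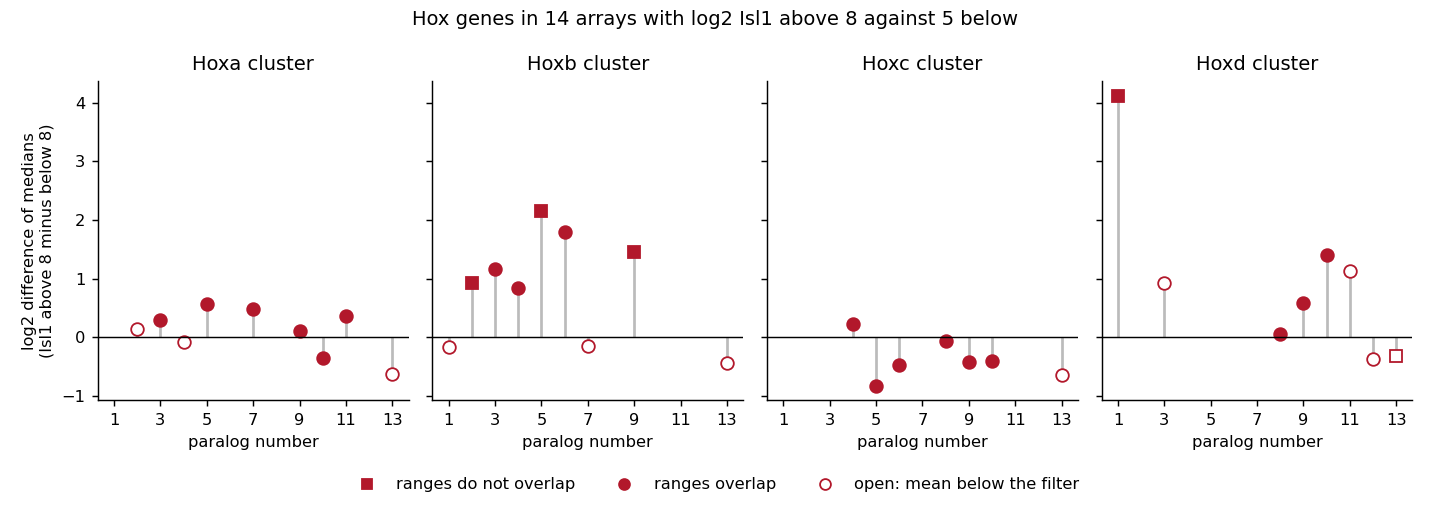
Difference of the median log2 intensity between the 14 arrays with log2 Isl1 above 8 and the 5 below, for 33 Hox genes by paralog number in the 4 clusters. Squares mark genes whose ranges do not overlap and open symbols genes with a mean below the filter; all filled Hoxb points lie above 0 and Hoxd1 stands at 4.12.

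With no overlap between the 14 and the 5 arrays, 4 of 22 tested Hox genes were higher, beside 4.39% of all genes tested, and 0 of 22 were lower, beside 1.56%. Besides Hoxd1 these were Hoxb2, Hoxb5 and Hoxb9. Hoxb5, a regulator of neural crest cells of the gut, had its lowest, median and highest values at 8.60, 9.63 and 10.46 in the 14 arrays, against 7.47, 8.42, 8.40, 7.38 and 6.72 in DR716, DV706, DV707, DV709 and CR715. Hoxb9 was at 8.96, 9.36 and 9.94 in the 14 arrays, against 6.93, 7.90, 7.94, 8.50 and 7.21 in the same 5. Hoxb2, a gene of hindbrain segments, was at 6.32, 6.71 and 7.25, against 4.45, 5.79, 5.87, 5.78 and 4.97. Each of the 5 values lay under all 14 for these genes. The differences of medians were 2.16, 1.45 and 0.93 for the 3 genes, and 4.12 for Hoxd1. In the 5 arrays Hoxb5 and Hoxb9 stayed above the filter, at 6.72 and 6.93 or higher, whereas Hoxd1 was below it on all 5. Hoxb2 was below it on DR716 and CR715, at 4.45 and 4.97, and its mean over the 5 arrays was under the filter as well. Hoxd1 and Hoxb2 thus passed the filter only through the 14 arrays, and their place in this count rests on the arrays where they are high.

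Hoxb6, Hoxb3, Hoxb4 and Hoxd10 differed in median by 1.80, 1.16, 0.83 and 1.41 with overlapping ranges. Hoxb6 was at 6.94, 8.03 and 9.11 in the 14 arrays and at 5.32, 7.43, 6.89, 6.23 and 5.29 in DR716, DV706, DV707, DV709 and CR715, so that only DV706 reached into the range of the 14. Hoxb3, another hindbrain gene, was at 9.89 to 10.53 in the 14 arrays and at 8.64, 10.11, 9.65, 9.02 and 8.42 in the 5, and again DV706 alone overlapped. Hoxb4, studied for its effect on blood stem cells, was at 7.87 to 8.94 against 7.60, 8.14, 8.88, 7.08 and 6.53, with both DV706 and DV707 inside the range of the 14. Hoxd10, which acts in lumbar motor neurons of mouse embryos, was at 8.57, 10.01 and 11.10 in the 14 arrays and at 8.60, 10.35, 7.90, 8.46 and 8.88 in the 5. The overlap there came from DV706, DR716 and CR715 together with the lowest of the 14, CV703 at 8.57.

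RNA integrity moved with the split in part, since DV706, DV707 and DR716 are both below 8 in Isl1 and highest in the Gapdh difference. The other low arrays, DV709 and CR715, had Gapdh differences of 1.24 and 1.23, within the range of the 14 arrays. In these 2 arrays Hoxd1 was at 2.88 and 2.77. With only these 2 on the low side, 7 of 22 Hox genes were higher without overlap, all 6 tested Hoxb genes and Hoxd1, beside 7.12% of all genes in the same arrays, and 0 were lower, beside 4.08%. Hoxd1 and Hoxb2 are again counted, though they passed the filter only through the 14 arrays. The differences of medians were 4.18 for Hoxd1, 2.58 for Hoxb5, 2.27 for Hoxb6 and 1.62 for Hoxb4. All of the Hoxb differences and that of Hoxd1 were at least as large as with the 5 low arrays. The threshold matters, because at 6 the arrays DV707 and CR715 join the high side and at 10 the arrays CR711 and DR719 join the low side, and in both cases 0 of 22 Hox genes were free of overlap, beside 0.453% and 0.587% of all genes in the higher direction.

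The lowest differences among tested genes were those of Hoxc5, Hoxc6, Hoxc9, Hoxc10 and Hoxa10, at -0.82, -0.47, -0.42, -0.40 and -0.35. Hoxc5 was at 8.23 to 9.50 in the 14 arrays and at 9.84, 9.67, 9.91, 9.04 and 9.34 in DR716, DV706, DV707, DV709 and CR715. Its 3 highest values among these 5 were in the arrays with the highest Gapdh differences, and only 1 of its 3 probe sets had this sign. Hoxc6 was at 6.36 to 7.02 against 7.11, 7.14, 7.37, 6.51 and 6.69, and Hoxc9 at 9.08 to 10.29 against 9.49 to 10.14. Hoxc10, at 9.56 to 10.35 against 9.58 to 10.58, overlapped as well. Without DV706, DV707 and DR716 the differences were -0.34 for Hoxc5, 0.04 for Hoxc6, -0.19 for Hoxc9, 0.26 for Hoxc10 and 0.38 for Hoxa10, so those of Hoxc6, Hoxc10 and Hoxa10 turned positive. Hoxc4, at 0.22 with all arrays, was at 0.02 without these 3, and Hoxc8, at -0.06 with all arrays, at 0.21. Hoxa10 was at 10.10 to 11.19 in the 14 arrays and at 11.33, 10.43, 11.35, 9.77 and 11.43 in the 5, where DV709 was the lowest of all arrays and CR715 the highest. Among members below the filter, Hoxd11, at 3.99 to 6.67 against 3.92 to 4.75, and Hoxd3, at 4.24 to 5.87 against 3.13 to 5.18, overlapped, while Hoxd13 was lower without overlap at 3.47 to 4.12 against 4.13 to 4.75, all under the filter.

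Hoxa genes had no member without overlap. Hoxa11, which patterns the forearm and lower leg in mouse embryos, was at 5.84 to 7.33 in the 14 arrays and at 6.45, 6.08, 6.53, 3.96 and 6.26 in DR716, DV706, DV707, DV709 and CR715, so that a single array, DV709, stood far below. DV709 also held the lowest values of Hoxa5, Hoxa9 and Hoxa10, at 6.19, 8.89 and 9.77. On this array Adipoq, the fat cell hormone adiponectin, was at 5.48, against 8.04 to 13.80 on the others. Acta1, skeletal muscle actin, was at 4.81 there, but also at 4.67 and 4.78 on DV707 and DV710, where Hoxa11 was at 6.53 and 6.65. Of the 8 tested adipocyte markers the level was -3.61 on DV709, the lowest of all arrays, and -2.54 on CV702, the next lowest, where Hoxa11 was at 7.01. The part of fat content in the Hoxa values was not tested.

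**Figure D3:**
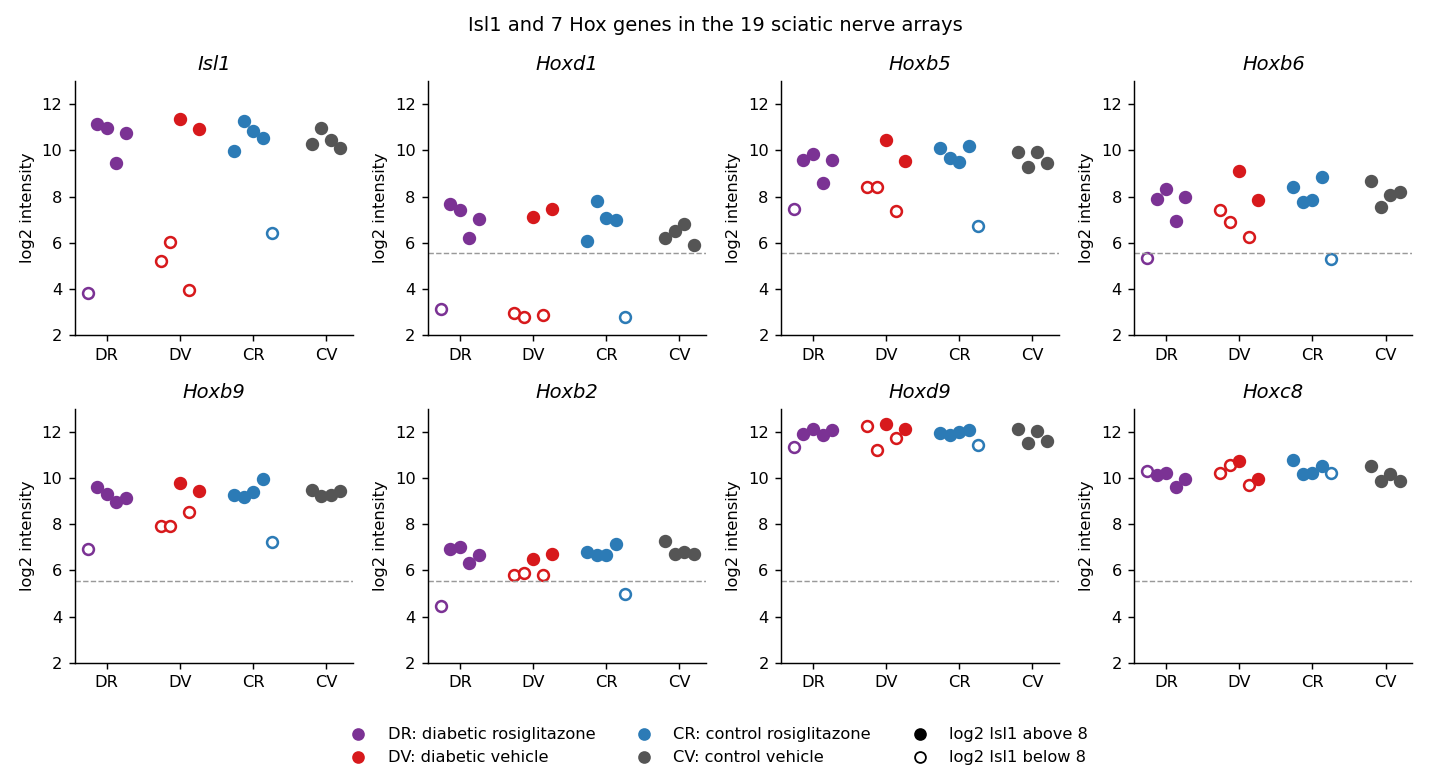
Log2 intensity of Isl1 and 7 Hox genes in each of 19 arrays, by group (DR and DV, diabetic with rosiglitazone and with vehicle; CR and CV, control with rosiglitazone and with vehicle). Filled points are arrays with Isl1 above 8, open points those below, and the dashed line in the Hox panels is the filter at 5.54; the 5 open Hoxd1 points lie between 2.77 and 3.13, while all 19 Hoxd9 points lie between 11.21 and 12.36.

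Between the groups of the study, no Hox gene passed an adjusted p of 0.05. A linear model with a mean per group was fitted with limma to all 13460 genes above the filter. In the comparison of DV with CV arrays, which asked what diabetes does in mice given vehicle, 0 of 22 Hox genes passed, beside 0% of all genes tested, and 0 of 22 were higher and 2 lower at an unadjusted limma p under 0.05, beside 10.7% and 7.39% of all genes, 18.1% in all. Of the 22, 7 lay higher and 15 lower in DV arrays, with a median log2 change of -0.30, beside 0.03 over all genes tested. All 6 Hoxb genes were among the lower ones, at -0.73 (SE 0.47, limma adjusted p = 0.388) for Hoxb2 and -0.81 (SE 0.69, limma adjusted p = 0.506) for Hoxb5. Hoxd1 had a log2 change of -1.72 (SE 1.19, limma adjusted p = 0.416), and its DV values of 7.11 and 7.47 in DV708 and DV710 were above all 4 CV values. These are the DV arrays with Isl1 above 8. Without the 5 arrays below 8 the median over the Hox genes was 0.14, and with no filter, over the 33 members, it was 0.09.

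Named by the smallest p, Hoxa3, Hoxc4 and Hoxa11 all lay lower in DV arrays. Hoxa3 stood at 7.44, 8.01, 8.08, 7.70 and 8.33 in DV arrays, against 8.60, 8.24, 8.38 and 8.49 in CV arrays, with a log2 change of -0.52 (SE 0.19, limma adjusted p = 0.238). The groups overlapped only through DV710, and 3 of the 4 probe sets of Hoxa3 had this sign. The change was -0.22 without the arrays with Isl1 below 8 and -0.23 with the mean of all probe sets. Hoxc4, a gene of neck levels, stood at 10.48, 10.26, 11.17, 11.44 and 11.06 in DV arrays, against 11.42, 11.31, 11.43 and 11.21 in CV arrays. Here DV706 and DV707 were the lowest, DV709 was the highest, and the log2 change was -0.46 (SE 0.18, limma adjusted p = 0.246). It was -0.30 without DV707 and -0.11 without both DV706 and DV707, whose Gapdh differences were the highest. Hoxa11 stood at 6.08, 6.53, 6.37, 3.96 and 6.65 in DV arrays, against 7.01, 5.84, 6.86 and 7.27 in CV arrays, a log2 change of -0.83 (SE 0.45, limma adjusted p = 0.314) that was -0.34 without DV709.

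In the comparison of DR with DV arrays, rosiglitazone in diabetic mice, 0 of 22 Hox genes passed, beside 0% of all genes tested, and 0 of 22 were higher and 1 lower at an unadjusted limma p under 0.05, beside 4.13% and 5.56% of all genes, 9.7% in all. Of the 22, 11 lay higher and 11 lower in DR arrays, with a median of 0.02, beside -0.02 over all genes. The comparison shares the DV arrays with the one above. Hoxd8 stood at 10.30, 10.86, 11.20, 10.71 and 11.04 in DR arrays, against 11.77, 10.98, 11.36, 10.96 and 11.07 in DV arrays, with a log2 change of -0.41 (SE 0.18, limma adjusted p = 0.497). The DV value of 11.77 in DV706 was the highest of all arrays, and without DV706 the change was -0.27, with array weights -0.23. Hoxa7 stood at 7.97, 8.72, 8.48, 8.60 and 8.57 in DR arrays, against 7.83, 7.52, 8.44, 8.39 and 8.43 in DV arrays, a log2 change of 0.34 (SE 0.17, limma adjusted p = 0.497). DV706 and DV707 were its lowest arrays, and without both the change was 0.05. The change of Hoxa11 was 0.84 (SE 0.42, limma adjusted p = 0.497), and 0.35 without DV709. Hoxd1 had a difference of 1.64 (SE 1.12, limma adjusted p = 0.552) on the log2 scale, with 1 of 5 DR and 3 of 5 DV arrays below 5.89.

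Rosiglitazone in control mice, CR against CV arrays, left 0 of 22 Hox genes past the threshold, beside 0% of all genes tested. At an unadjusted limma p under 0.05, 0 of 22 were higher and 0 lower, beside 1.48% and 1.35% of all genes, 2.83% in all. The median was -0.16, beside 0.00 over all genes, with 7 higher and 15 lower in CR arrays, and it was 0.09 without CR715, the CR array with Isl1 below 8. The smallest p belonged to Hoxc8, a gene of the forelimb and thoracic levels, which stood at 10.77, 10.16, 10.23, 10.50 and 10.21 in CR arrays, against 10.52, 9.85, 10.17 and 9.87 in CV arrays, a log2 change of 0.27 (SE 0.21, limma adjusted p = 1) with overlapping groups. Without CR711 this was 0.17, and without CV702 it was 0.41. Hoxa3 and Hoxa7 followed, at -0.24 (SE 0.19, limma adjusted p = 1) and 0.23 (SE 0.18, limma adjusted p = 1), and Hoxa3 was at -0.09 without CR711.

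Diabetes under rosiglitazone, DR against CR arrays, had 0 of 22 Hox genes past the threshold, beside 0% of all genes tested. At an unadjusted limma p under 0.05, 0 of 22 were higher and 0 lower, beside 0.468% and 0.817% of all genes, 1.29% in all. The median was -0.05, beside 0.01 over all genes, with 7 higher and 15 lower in DR arrays. Each of these groups held 1 array with Isl1 below 8. Hoxc8 stood at 10.31, 10.14, 10.22, 9.62 and 9.94 in DR arrays, against the CR values given above, with a log2 change of -0.33 (SE 0.20, limma adjusted p = 1). The changes of Hoxc5 and Hoxa11 were -0.30 (SE 0.29, limma adjusted p = 1) and 0.41 (SE 0.42, limma adjusted p = 1). That of Hoxc5 was -0.56 without DR716, -0.19 without CR711 and -0.16 without DR719, and that of Hoxa11 was 0.26 without DR718.

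**Figure D4:**
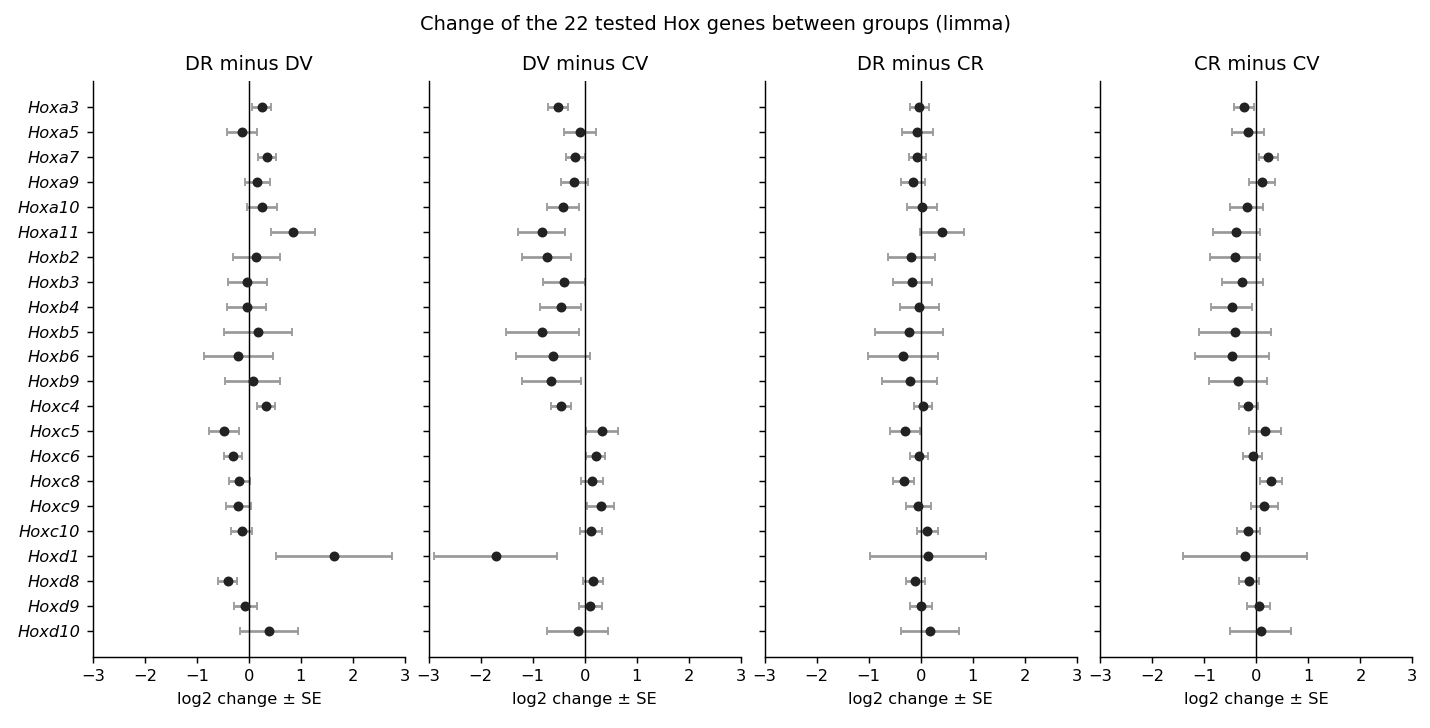
Log2 change with its SE (limma) of the 22 tested Hox genes in 4 comparisons between groups of sciatic nerve arrays (DR and DV, diabetic with rosiglitazone and with vehicle; CR and CV, control with rosiglitazone and with vehicle). No gene passed an adjusted p of 0.05; Hoxd1 has the longest bars, and in the DV minus CV panel the 6 Hoxb genes lie left of 0.

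Members that were bright in their cluster but among the smallest p of no comparison had these group levels. Hoxd9 averaged 11.86 ± 0.31 (SD, n = 5) in DR arrays, 11.93 ± 0.46 (SD, n = 5) in DV arrays, 11.86 ± 0.25 (SD, n = 5) in CR arrays and 11.82 ± 0.30 (SD, n = 4) in CV arrays. Hoxa9 averaged 10.24 ± 0.22 (SD, n = 5) in DR arrays, 10.08 ± 0.70 (SD, n = 5) in DV arrays, 10.39 ± 0.04 (SD, n = 5) in CR arrays and 10.28 ± 0.20 (SD, n = 4) in CV arrays, and Hoxa10 10.90 ± 0.48 (SD, n = 5) in DR arrays, 10.65 ± 0.64 (SD, n = 5) in DV arrays, 10.87 ± 0.48 (SD, n = 5) in CR arrays and 11.06 ± 0.09 (SD, n = 4) in CV arrays. For these 3 genes of numbers 9 and 10 the group means differed by less than 1 on the log2 scale, and the widest SD was that of the DV arrays for Hoxa9 and Hoxa10, which hold DV709. Hoxb5 averaged 9.01 ± 0.98 (SD, n = 5) in DR arrays, 8.84 ± 1.19 (SD, n = 5) in DV arrays, 9.23 ± 1.43 (SD, n = 5) in CR arrays and 9.65 ± 0.34 (SD, n = 4) in CV arrays. Hoxb3 averaged 9.77 ± 0.65 (SD, n = 5) in DR arrays, 9.80 ± 0.49 (SD, n = 5) in DV arrays, 9.94 ± 0.86 (SD, n = 5) in CR arrays and 10.21 ± 0.30 (SD, n = 4) in CV arrays. Hoxb9 had values of 6.93, 9.59, 9.31, 8.96 and 9.13 in DR arrays, 7.90, 7.94, 9.78, 8.50 and 9.42 in DV arrays, 9.27, 9.18, 9.40, 9.94 and 7.21 in CR arrays and 9.49, 9.22, 9.26 and 9.44 in CV arrays. For the 3 Hoxb genes the SD of the CV group, which has no array with Isl1 below 8, was the narrowest. Hoxd10 averaged 9.92 ± 0.84 (SD, n = 5) in DR arrays, 9.53 ± 1.33 (SD, n = 5) in DV arrays, 9.74 ± 0.60 (SD, n = 5) in CR arrays and 9.66 ± 0.76 (SD, n = 4) in CV arrays, and Hoxc10 10.05 ± 0.26 (SD, n = 5) in DR arrays, 10.19 ± 0.41 (SD, n = 5) in DV arrays, 9.92 ± 0.36 (SD, n = 5) in CR arrays and 10.07 ± 0.19 (SD, n = 4) in CV arrays.

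The interaction, which asks whether the rosiglitazone effect differed between diabetic and control mice, had 0 of 22 Hox genes past the threshold beside 0% of all genes tested. At an unadjusted limma p under 0.05, 0 of 22 had a positive and 0 a negative interaction, beside 1.88% and 2.89% of all genes, 4.77% in all. The median was 0.26, beside -0.02 over all genes, and -0.26 without the arrays with Isl1 below 8. Hoxa11 had the smallest p, with an interaction of 1.24 (SE 0.62, limma adjusted p = 0.748), and 0.75 without DV709. Those of Hoxc4 and Hoxa3 were 0.49 (SE 0.25, limma adjusted p = 0.748) and 0.49 (SE 0.27, limma adjusted p = 0.748). Hoxc4 was at 0.15 without DV706 and DV707, and Hoxa3 at 0.16 without the arrays with Isl1 below 8. The comparisons above share arrays, so their values are not independent of each other.

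Genes that work with or upstream of Hox genes were read from lists. Of the TALE partners 8 of 9 were tested, and none passed in any comparison. In DV against CV arrays 1 was higher and 1 lower at an unadjusted p under 0.05, beside 10.7% and 7.39% of all genes. These were Pbx3 at 0.69 (SE 0.24, limma adjusted p = 0.238) and Pknox1 at -1.64 (SE 0.53, limma adjusted p = 0.238). In DR against DV arrays 1 of the 8 was higher and 1 lower at that level, Pknox1 at 1.53 (SE 0.50, limma adjusted p = 0.497) and Pbx4 at -0.23 (SE 0.11, limma adjusted p = 0.497). In the Isl1 split none of the 8 was free of overlap, beside 4.39% higher and 1.56% lower of all genes, and Pknox1 ran over 7.94 to 9.37 in the 14 arrays and 5.46 to 8.87 in the 5. Of 20 tested chromatin regulators of Hox clusters, Polycomb and Trithorax-type proteins among them, none passed either. In DV against CV arrays 4 of the 20 were higher and 2 lower at an unadjusted p under 0.05, beside 10.7% and 7.39% of all genes, among them the Polycomb gene Cbx2 at 0.62 (SE 0.22, limma adjusted p = 0.238). In DR against DV arrays 0 of the 20 were higher and 5 lower, beside 4.13% and 5.56% of all genes, with Cbx2 at -0.58 (SE 0.21, limma adjusted p = 0.497). In the Isl1 split 1 of the 20 was lower without overlap, beside 1.56% of all genes, and 0 higher, beside 4.39%. That gene was Wdr5, a subunit of histone methyltransferase complexes, at 9.51 to 10.02 against 10.06 to 10.34.

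Retinoic acid, made from vitamin A, is a known inducer of Hox genes in embryos. Of its 14 tested genes none passed between groups, and 1 of 14 was lower and 0 higher at an unadjusted limma p under 0.05 in DV against CV arrays, a share near the 7.39% of all genes that were lower there, with 10.7% higher. In the Isl1 split 1 of 14 was higher without overlap and 0 lower, beside 4.39% and 1.56% of all genes, which is a count near that background. It was Aldh1a2, an enzyme that makes retinoic acid, at 10.25 to 11.62 in the 14 arrays against 4.99 to 9.34 in the 5. Of 14 axial and limb genes outside the clusters 4 were tested, and in DV against CV arrays 2 of the 4 were higher and 1 lower at an unadjusted limma p under 0.05, beside 10.7% and 7.39% of all genes, with none past the adjusted threshold. In the Isl1 split 1 of the 4 was lower without overlap, beside 1.56% of all genes, Meox2, a homeobox gene of muscle and vessels, at 10.42 to 10.97 against 11.19 to 12.14. Pitx1, a gene of hindlimb identity, ran over 5.25 to 6.46 in the 14 arrays and 5.77 to 7.17 in the 5, which overlap. Tbx4, of the hindlimb, and Tbx5, of the forelimb, had means below the filter, at 3.94 to 4.98 and 4.19 to 6.39 in the 14 arrays and 4.80 to 5.38 and 5.11 to 7.21 in the 5.

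Marker lists of other cell types differed with the split to different degrees, where 4.39% of all genes tested were higher and 1.56% lower without overlap. The astrocyte list was at -1.23 to 1.53 in the 14 arrays and -2.42 to -1.98 in the 5, with 1 of 6 markers higher without overlap, and satellite glia at 0.09 to 0.90 and -1.93 to -1.09, with 3 of 6. Fibroblast and perineurial markers, at -0.18 to 0.17 and -0.20 to 0.25, and Schwann cell markers, at -0.02 to 0.34 and -0.98 to 0.26, overlapped, with 0 of 11 and 0 of 9 markers free of overlap. Muscle markers were at -2.69 to 3.76 and -2.30 to 2.97, and adipocyte markers at -2.54 to 1.41 and -3.61 to 2.86. Endothelial markers were at -0.65 to 0.33 and 0.24 to 1.20, with 0 of 8 free of overlap. Oligodendrocyte markers were at -2.83 to 2.14 and -2.18 to -1.81, with 0 of 6, and the 2 tested motor neuron and spinal cord markers at 0.06 to 1.02 and -1.77 to -1.34, with 1 of 2, Isl2. The medians of Isl2 differed by 4.26 and those of Slc32a1 by -0.03, so the level of this list followed Isl2 alone. Some markers counted here, such as Isl2 and the astrocyte marker Aqp4 at 3.23 to 5.37 in the 5 arrays, passed the filter only through the 14. Macrophage markers, at -0.39 to 0.39 and -0.75 to 0.65, and the 1 tested red blood cell marker, at -3.53 to 1.97 and -1.11 to 3.48, overlapped. Their part in the Hox values was not tested.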

How the data were processed

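Total RNA from sciatic nerve was extracted with RNeasy Mini columns and amplified and biotin-labelled with NuGEN Ovation, per the labels' protocols. The submitters' processing notes name RMA, a method of background correction, quantile normalization and probe summary, without a version. Each probe set has a single deposited intensity per array, which the values show to be linear. The software, its settings and the step to a linear scale are not given in the sources used here. Scanner files were not used here. Array medians ran from 83.3 to 101.7.

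The table held 45101 probe sets, of which 64 controls were left out, and the platform annotation gives a single gene symbol for 34945, several for 932 and none for 9160. The log2 of each value was taken with no offset. Genes above the 40th percentile of probe set means were tested with limma 3.58.1 in R 4.3.3 (lmFit, eBayes, 4 group means) with Benjamini-Hochberg adjustment over 13460 genes, and the procedure was tested on simulated data. The 33 Hox genes kept their symbols in the reference gene table. Groups and replicate numbers come from the sample titles. The unit is the mouse, 1 array each, so the number of arrays limits the precision, and p-values hold differences in tissue content as well. Genes given sample by sample were those with the 3 smallest p in a comparison, the 3 with the highest mean in a cluster and the 5 highest and 5 lowest differences in the Isl1 split, some by their ranges. Members and lists were chosen with earlier results of these data known. Alternatives were an offset of 16, other filters, all probe sets, quantile normalization, array weights, the Gapdh difference as covariate and arrays left out. The means of the 22 Hox genes per array had a pooled SD within groups of 0.39 on the log2 scale.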

Additional observations from a re-analysis of the deposited data

Results flagged for a closer look

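In 10 of 88 sets of values, each of 1 tested Hox gene in 1 group, a single array stood apart from the rest of its group by more than Dixon's 95% critical value, where chance gives about 1 in 20 sets. All 10 were low values on arrays with Isl1 below 8. CR715 held 6 of them. There Hoxb5 was at 6.72, against 9.48 to 10.19 on the other CR arrays, and Hoxb3 at 8.42, against 10.14 to 10.53. Hoxb4 was at 6.53, against 8.27 to 8.69, and Hoxb2 at 4.97, against 6.67 to 7.16. Hoxb9 was at 7.21, against 9.18 to 9.94, and Hoxa5 at 6.60, against 7.25 to 7.50. On DR716, Hoxb2 was at 4.45, against 6.32 to 7.03 on the other DR arrays, Hoxb3 at 8.64, against 9.89 to 10.20, and Hoxb9 at 6.93, against 8.96 to 9.59. On DV709, Hoxa11 was at 3.96, against 6.08 to 6.65 on the other DV arrays. The flags share arrays and a cluster, so they are not independent of each other. The share of such sets over all genes tested was not counted, so the 10 are not read as an excess particular to Hox genes.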

How the results depend on the processing

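The count of Hox genes past the adjusted threshold stayed at 0 in all 5 comparisons under every alternative run, as did the count over all genes, except that 20 genes passed for rosiglitazone in control mice with array weights and 0 to 4 passed for diabetes under vehicle over single arrays left out, with 4 without DV710. None of these were Hox genes. Over single arrays left out, the median change over the Hox genes ran from -0.46 to -0.20 for diabetes under vehicle, -0.16 to 0.21 for rosiglitazone in diabetic mice, -0.23 to 0.09 in control mice, -0.17 to 0.05 for diabetes under rosiglitazone and -0.03 to 0.41 for the interaction. The median change over the Hox genes was 0.14 for diabetes under vehicle and -0.26 for the interaction without the arrays with Isl1 below 8, of which the DV group held 3. The count of Hox genes higher and free of overlap in the Isl1 split was 0 at an Isl1 threshold of 6, 0 at a threshold of 10 and 7 without DV706, DV707 and DR716, where fewer arrays are compared, beside 0.453%, 0.587% and 7.12% of all genes at these settings. Over single arrays left out it ran from 4 to 6, with 6 without DV706, beside 4.39% to 7.19% of all genes over these arrays and 5.03% without DV706. It was 4 with the offset, 4 with quantile normalization and 5 with all probe sets, beside 4.41%, 4.15% and 4.11% of all genes. Without the arrays with Isl1 below 8, the changes for diabetes under vehicle were -0.22 for Hoxc4 and -0.24 for Hoxa11, and with the Gapdh difference as covariate that of Hoxc4 was -0.15 and that of Hoxa7 for rosiglitazone in diabetic mice 0.02. The named genes kept their direction in the comparison that named them under every alternative that could give a value, and Hoxa11 had none with the filter at the 60th percentile. No paired analysis was possible because the groups share no replicate numbers. Arrays without detection calls limit what can be said of the 11 members below the filter.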

Other observations

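Several markers of astrocytes and oligodendrocytes were high on most, not all, of the 14 arrays with Isl1 above 8. The oligodendrocyte list was at 0.23 to 2.14 on 12 of them and at -1.98 and -2.83 on CV703 and DR720. The astrocyte list was at 0.73 to 1.53 and at -1.23 and -0.97. Of that list, Slc1a3 and Aldh1l1 differed in median by only -0.08 and 0.13 in the Isl1 split. The tissue these transcripts came from was not tested. Aqp4, a water channel of astrocytes, was at 10.76 to 12.72 on 12 of them and at 6.91 and 7.73 on CV703 and DR720. Mog, a protein of oligodendrocytes, was at 7.60 to 9.82 on the 12 arrays and at 3.60 and 3.47 on CV703 and DR720, and Gfap, an astrocyte filament, at 11.64 to 12.36 and at 8.54 and 7.54. The pain neuron channel gene Scn10a did not follow them, at 7.74 to 10.10 on the 12 arrays and 8.63 and 9.63 on CV703 and DR720.

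On CV703 and DR720 most Hox genes lay within the range of the 12 arrays, both values of 17 of the 22 tested genes. The share over all genes tested was not counted, so this is not read as a trait of Hox genes. Hoxd1 was at 6.53 and 7.01, inside 5.89 to 7.81, Hoxb5 at 9.27 and 9.59, inside 8.60 to 10.46, and Hoxb9 at 9.22 and 9.13, inside 8.96 to 9.94. Hoxb3 was at 9.90 and 9.89, under the 9.97 to 10.53 of the 12. Hoxd10 was at 8.57 on CV703, under the 9.53 to 11.10 of the 12, and at 10.08 on DR720, inside it. The other genes with a value outside were Hoxa5, Hoxa11 and Hoxd9. These arrays were singled out after their values were seen, and no test was made.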
